A study of Mus musculus with 18 samples.

Results

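Solute carriers are membrane proteins that move metals, ions, nutrients, nucleosides and metabolites across the cell surface and the membranes of organelles. The genes described here are those whose symbol in the platform annotation carries the solute carrier prefix, leaving out the glucose transporters Slc2a1 and Slc2a3, with a signal of at least 60 on at least 2 of the 6 arrays of their array type. The rule took 326 probe sets of 224 genes, of 528 probe sets of 308 genes with such a symbol and of 23285 probe sets that passed the same minimum. Members were selected on symbol and on signal level, not on a difference between populations. On the U74A array lay 88 of them, on U74B 136 and on U74C 102. The signal itself chose the members, so that minimum is a description: just inside lay Slc45a3, Slc25a45 and Slc11a2, whose second highest signals were at 60, 60.2 and 61.2, and just outside lay Slc25a48, Slc4a3 and Slc4a9, at 59.8, 59.6 and 59.6. Of the members, 312 reached 60 in more than 1 population and 14 in only 1 (7 in cDC, 4 in PDC and 3 in IKDC). A difference in those 14 follows in part from the rule.

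The study profiled 3 dendritic cell populations of mouse spleen. IKDC stands for the interferon producing killer type, cDC for the conventional type and PDC for the plasmacytoid type. Each population had 2 samples, each read on 3 Affymetrix array types, 18 arrays in all. No treatment, genotype, strain, age or sorting gate is given in the labels used here, and the labels do not say whether the samples came from separate mice, so the p-values measure only the spread between these preparations, which may be technical. All RNA went through 2 rounds of amplification before labelling. In bulk samples, fewer cells of a type and less RNA per cell cannot be told apart.

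As background, PDC sense nucleic acids through Toll-like receptors of the endosome and answer with type I interferon, and the lysosomal carrier Slc15a4 is needed for that response. cDC take up and process antigen, and spleen macrophages, which recycle the iron of red cells, export it through ferroportin (Slc40a1). IKDC were described as spleen cells that combine natural killer and dendritic cell traits.

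The labelled populations carried their markers: all 6 IKDC markers were higher in IKDC than in cDC, and all 6 PDC markers were higher in PDC than in cDC (limma adjusted p under 0.05). Of 7 cDC markers 5 were lower in IKDC than in cDC, but only 3 were lower in PDC than in cDC. Median signals of the 18 arrays lay between 51.7 and 87.2, the Gapdh 3' to 5' ratio between 2.97 and 6.0, and replicate correlations of log2 signals between 0.785 and 0.953. Control probe sets with no spiked target reached 45.2 on U74A, 122.7 on U74B and 148.7 on U74C, so a low signal on U74B or U74C is weak evidence of a transcript. Markers of other cells also moved. Sums were taken over all markers with a probe set, tested or not. The summed signal of 11 macrophage and monocyte markers was 6131 and 7324 in cDC, 857 to 874 in IKDC and 2807 to 2823 in PDC. The sum of 8 erythroid markers was 15163 and 18005 in IKDC, 10193 and 23398 in PDC and 1516 to 2514 in cDC. For 10 pancreatic acinar markers the sums were 5039 and 6558 in IKDC, 1696 to 1722 in cDC and 2369 to 3009 in PDC, and 7 of the 10 were higher in IKDC than in cDC. For 5 B and plasma cell markers the sums were 5274 and 8118 in IKDC, 3477 and 8070 in PDC and 724 to 787 in cDC. Only 2 of the 5, Igha and Jchain, were higher in IKDC and in PDC than in cDC (limma adjusted p under 0.05). For 3 T cell markers they were 489 and 882 in IKDC, 239 to 384 in PDC and 69.9 to 112 in cDC. The part of these other cells in the calls below was not tested.

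Against cDC, IKDC had 21 solute carrier probe sets past an adjusted p of 0.05 (limma, Benjamini-Hochberg over all 23285 probe sets tested), 6.44% of the members, where 5.60% of all probe sets passed. Of these 5 were higher and 16 lower in IKDC, while over all probe sets 2.68% were higher and 2.92% lower. PDC against cDC gave 16 members, 7 higher and 9 lower in PDC (4.91%, with 3.65% of all probe sets passing, 1.73% higher and 1.92% lower). IKDC against PDC gave 19 members, 6 higher and 13 lower in IKDC (5.83%, with 4.45% of all probe sets passing, 2.06% higher and 2.39% lower). The total shares called lie close to those of the whole arrays, while the members lower in IKDC were 4.91% against cDC and 3.99% against PDC. The 16 lower in IKDC than in cDC include Slc11a1, Slc7a7 and Slc4a8, which reached 60 in cDC alone, so the rule partly set their direction. Slc11a1 and Slc7a7 are also among the 9 lower in PDC than in cDC. Of all probe sets called in any comparison, 193 of 2030 reached 60 in only 1 population, and of the members 3 of 36. Median log2 differences of the members were -0.11, -0.04 and -0.12 in the 3 comparisons, and of all probe sets -0.01, -0.01 and -0.02. Each population enters 2 of the comparisons, so they are not independent. The samples of the 2 populations did not overlap in 163, 143 and 161 members, with 51.6%, 41.3% and 43.7% of all probe sets not overlapping.

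In all, 36 probe sets of 33 genes passed in at least 1 comparison: 3 in all 3 comparisons, 14 in 2 and 19 in 1. The smallest log2 difference called was 1.27, 1.05 and 1.20 in the 3 comparisons, with a median standard error over the members of 0.43 in each, so differences much under 1 on the log2 scale could not be told from replicate spread. Calls rest on 2 samples a population, and leaving out a sample of a compared population left 7 to 11, 4 to 9 and 7 to 13 calls in place of 21, 16 and 19. Of the original calls 6, 4 and 6 held in every such refit, and the others are given below with the sample and the adjusted p. Under all other settings as well, 4 calls held for IKDC and cDC (Slc12a2, Slc25a53, Slc46a3 and Slc8a1). For PDC and cDC 4 held (Slc12a2, Slc25a53 and 2 probe sets of Slc49a4). For IKDC and PDC 6 held (Slc15a4, Slc20a1, Slc29a3, Slc44a1 and 2 probe sets of Slc49a4). Among these settings, the average of a gene's probe sets was taken within each array type only. The U74C probe sets of Slc25a53 and Slc8a1, which did not pass, therefore did not enter the average behind those U74A calls.

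**Figure D1:**
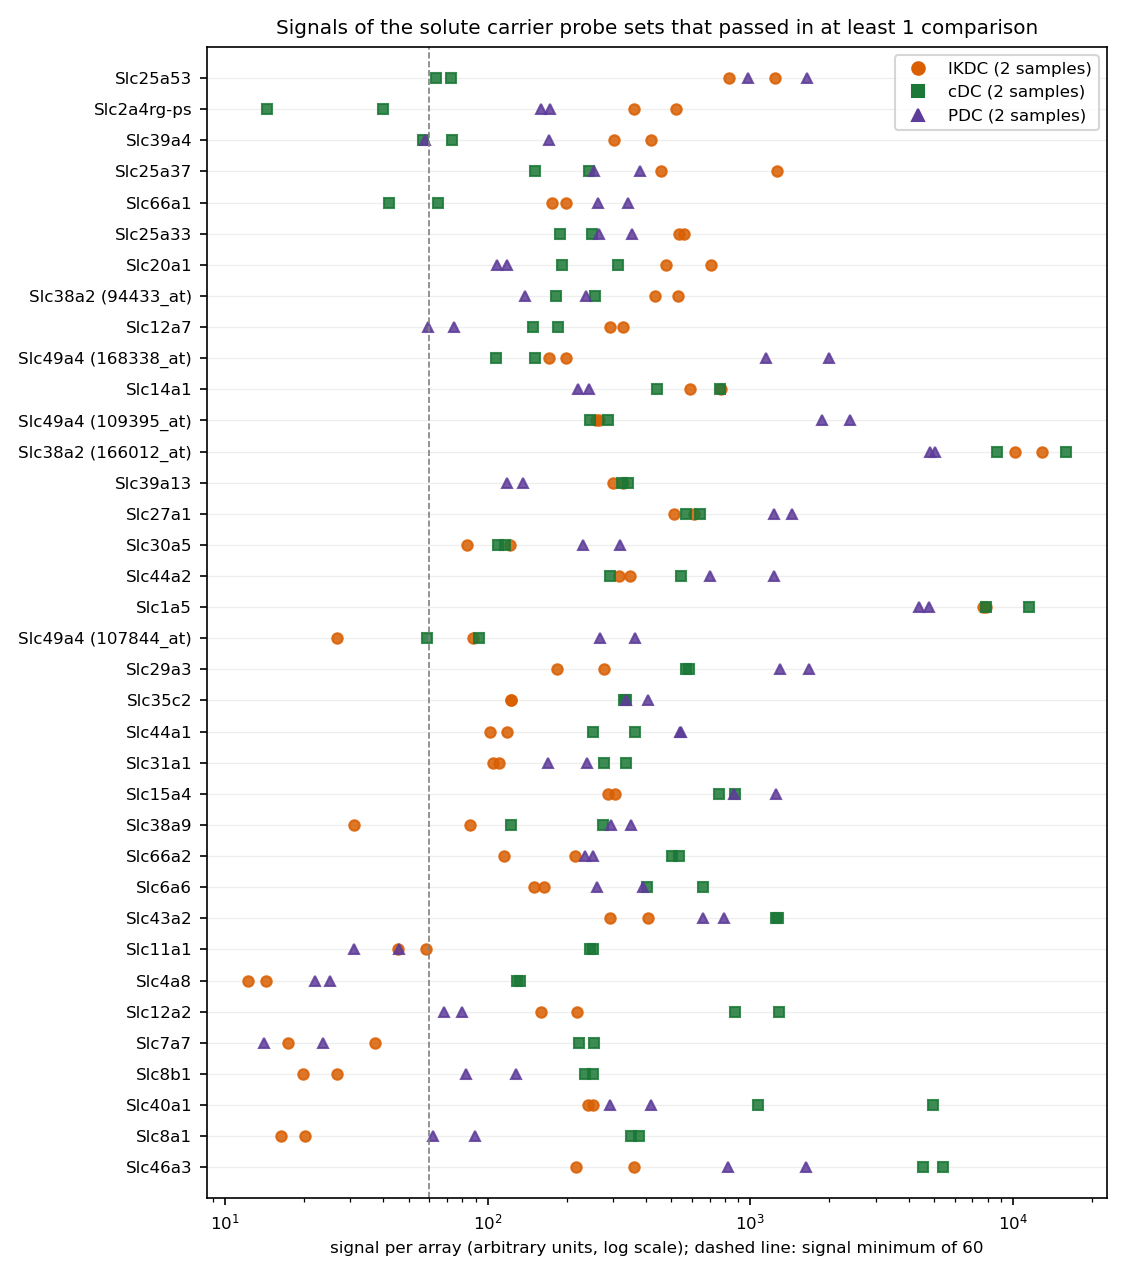
Signal on each array (arbitrary units, log axis) of the 36 solute carrier probe sets that passed in at least 1 comparison, with 2 samples each of IKDC, cDC and PDC, ordered by the log2 difference of IKDC and cDC. At the bottom the cDC samples of Slc46a3 (4535 and 5430) stand apart from IKDC (218 and 359), and near the top those of Slc25a53 (63.8 and 72.7) lie under both other populations.

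**Figure D2:**
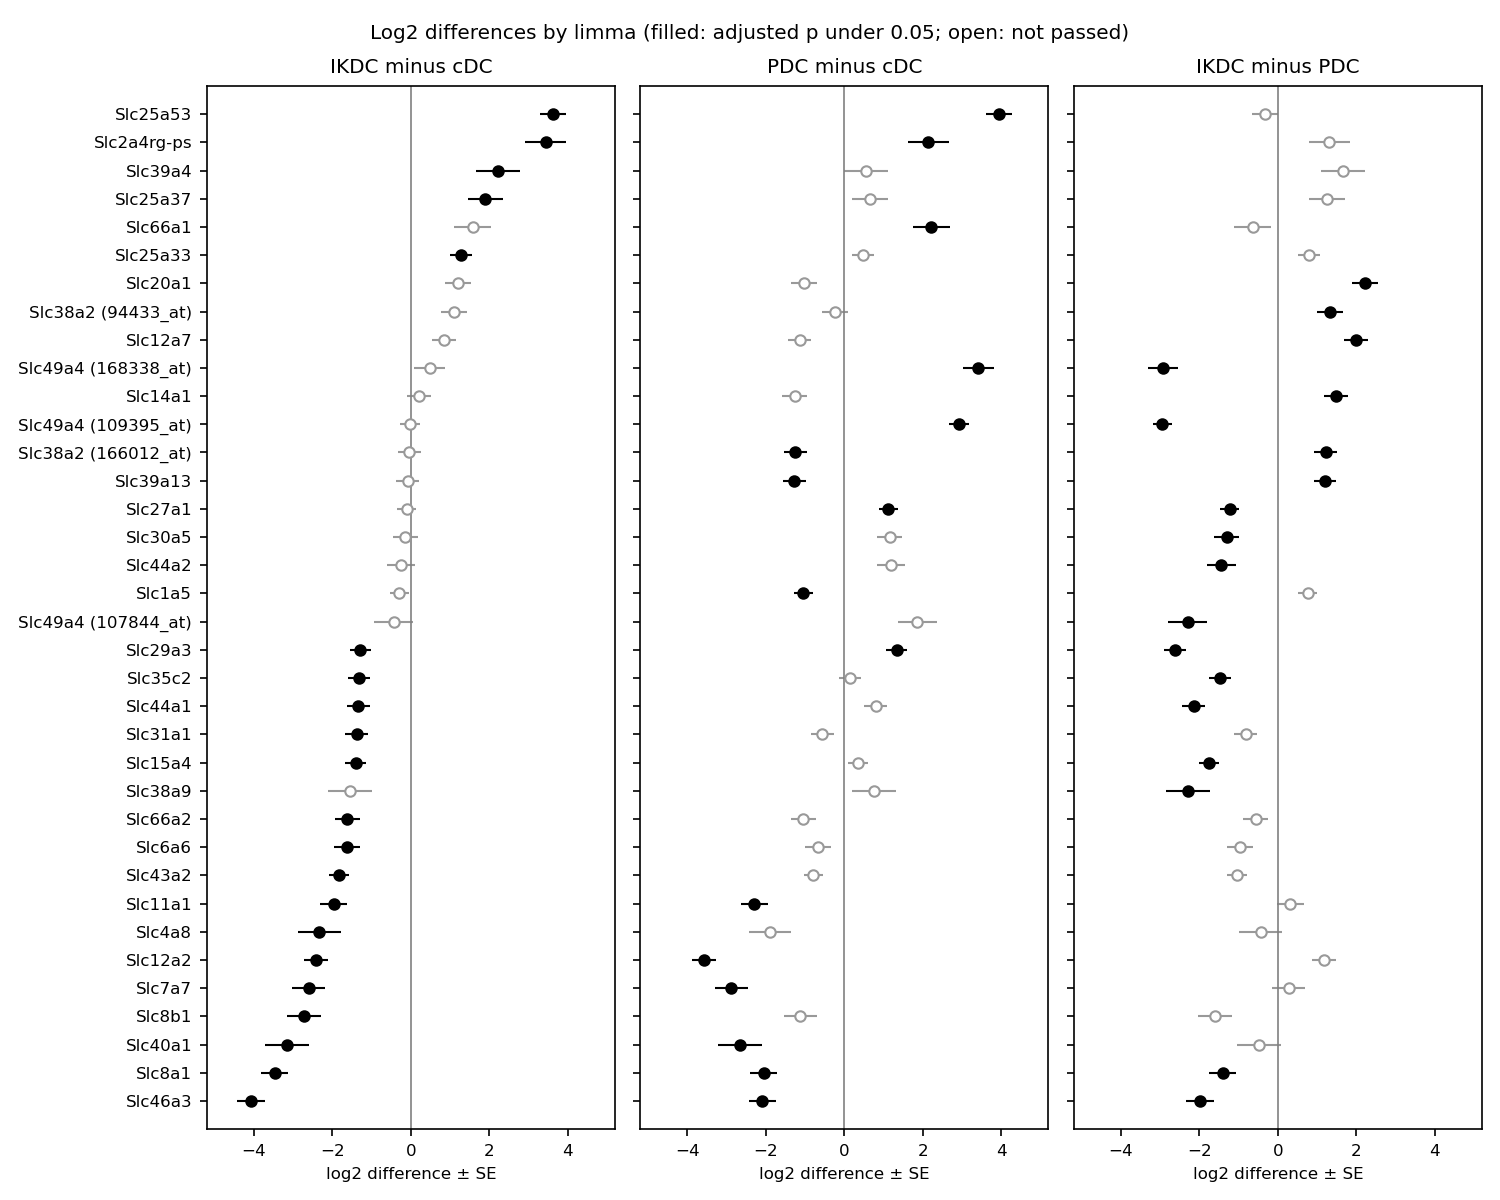
Log2 differences (points) with standard errors (bars) of the same 36 probe sets in the 3 comparisons, filled where the adjusted p by limma is under 0.05 and open where it is not. Slc46a3, Slc8a1 and Slc29a3 are filled in all 3 panels.

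Among carriers of the lysosome and endosome, Slc15a4, Slc29a3, Slc46a3 and Slc66a2 were lower in IKDC than in cDC, and Slc29a3 and Slc49a4 were higher in PDC than in both other populations. Slc15a4, the proton-coupled histidine and peptide transporter of endolysosomes that Toll-like receptor signalling in PDC depends on, had signals of 306 and 287 in IKDC, 762 and 873 in cDC, and 864 and 1249 in PDC. Both IKDC samples lay under all 4 others, while cDC and PDC overlapped. The log2 difference was -1.41 ± 0.26 (SE) for IKDC minus cDC (adjusted p = 0.0112) and -1.76 ± 0.26 for IKDC minus PDC (adjusted p = 0.00362), against 0.34 ± 0.26 for PDC minus cDC (adjusted p = 0.642). Slc29a3, a nucleoside exporter of the lysosome, stood at 184 and 278 in IKDC, 570 and 586 in cDC, and 1300 and 1674 in PDC. No 2 populations overlapped and the order was PDC, cDC, IKDC: PDC exceeded cDC by 1.33 ± 0.27 on the log2 scale (adjusted p = 0.0269), and IKDC minus cDC was -1.29 ± 0.27 (adjusted p = 0.0231) and IKDC minus PDC -2.62 ± 0.27 (adjusted p = 0.000436).

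Slc49a4, a lysosomal membrane transporter also known as Dirc2, had the largest fitted difference between IKDC and PDC of all members that passed. Its U74B probe set 109395_at read 258 and 265 in IKDC, 287 and 246 in cDC, and 1872 and 2395 in PDC. IKDC and cDC overlapped and both PDC samples lay far above, with log2 differences of 2.92 ± 0.25 for PDC minus cDC (adjusted p = 0.000198) and -2.94 ± 0.25 for IKDC minus PDC (adjusted p = 0.00014). The U74C probe set 168338_at showed the same order, 1151 and 1997 in PDC against 108 to 199 in the other 4 samples, with a difference of 3.41 ± 0.39 for PDC minus cDC (adjusted p = 0.000701) and -2.93 ± 0.39 for IKDC minus PDC (adjusted p = 0.00131). Another U74B probe set, 107844_at, read 267 and 364 in PDC and 26.7 to 92.5 elsewhere and passed for IKDC minus PDC only (-2.30 ± 0.50, adjusted p = 0.0306), at least 2.54-fold over the 122.7 of the U74B controls, which all 4 IKDC and cDC signals lie under. The remaining one, 164654_f_at, at 169 and 82.8 in PDC and 11.5 to 38 elsewhere, did not pass. All 4 probe sets thus put both PDC samples above the other 4.

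Slc46a3, a lysosomal transporter that carries steroid conjugates and antibody-drug catabolites, had the largest fitted difference between IKDC and cDC. Its signals were 218 and 359 in IKDC, 4535 and 5430 in cDC, and 820 and 1630 in PDC. No 2 populations overlapped, in the order cDC, PDC, IKDC. IKDC minus cDC was -4.07 ± 0.35 (adjusted p = 0.000144), PDC minus cDC -2.09 ± 0.35 (adjusted p = 0.00979) and IKDC minus PDC -1.99 ± 0.35 (adjusted p = 0.0103). Slc66a2, a member of the PQ-loop family of organelle membranes, was also lower in IKDC (115 and 215) than in cDC (504 and 537), with PDC at 252 and 234 (IKDC minus cDC -1.62 ± 0.32, adjusted p = 0.012). Slc66a1, which exports cationic amino acids from lysosomes, read 198 and 176 in IKDC, 42.0 and 64.5 in cDC, and 263 and 342 in PDC, and passed only for PDC minus cDC (2.21 ± 0.47, adjusted p = 0.0268). Both of its cDC signals lie under the 148.7 of the U74C controls, and over that level PDC was at least 2.02-fold higher.

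Slc38a9, the lysosomal arginine sensor that signals to mTORC1, had 5 tested probe sets. On 165758_at IKDC read 31.1 and 85.4, cDC 122 and 274, and PDC 295 and 353, and IKDC minus PDC passed (adjusted p = 0.0456), the only call among the 5. Both IKDC signals lie under the 148.7 of the U74C controls, and over that level PDC was at least 2.17-fold higher. The plasma membrane nucleoside carrier Slc29a1 gave 206 and 203 in IKDC, 171 and 276 in cDC and 322 and 203 in PDC, with all samples overlapping and log2 differences between -0.31 and 0.22. In the class of peptide, nucleoside and lysosomal families, 3 of 7 genes were lower in IKDC than in cDC, 2 of 7 were higher in PDC than in cDC, and 2 of 7 were lower in IKDC than in PDC (1 probe set per gene), where 2.92%, 1.73% and 2.39% of all probe sets passed in these directions. The class follows family numbers, so Slc49a4 and Slc46a3 are counted in the class named vitamin. Of its 13 genes 2 were lower in IKDC than in cDC, 1 was higher and 1 lower in PDC than in cDC, and 4 were lower in IKDC than in PDC. Shares of all probe sets in these directions were 2.92%, 1.73%, 1.92% and 2.39%. Class counts are by gene, a different unit: 8.04%, 6.7% and 6.7% of all member genes passed in the 3 comparisons, but 6.44%, 4.91% and 5.83% of member probe sets.

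Leaving out 1 sample left the IKDC and PDC calls of Slc15a4, Slc29a3 and 2 Slc49a4 probe sets in place, as well as the PDC and cDC calls of those 2 probe sets and the IKDC and cDC call of Slc46a3. The IKDC and cDC call of Slc15a4 was lost without either sample of IKDC or cDC (adjusted p 0.062 to 0.0998). That of Slc29a3 was lost without IKDC replicate 1 or either cDC sample (0.127 to 0.182), and its PDC and cDC call without either cDC sample or PDC replicate 2 (0.135 to 0.157). Slc46a3 lost its PDC and cDC call without either cDC sample (0.0735 to 0.117) and its IKDC and PDC call without IKDC replicate 1 or PDC replicate 2 (0.0557 to 0.088). Slc66a2 was lost without IKDC replicate 1 or either cDC sample (0.0758 to 0.167), and Slc66a1 without any 1 of the 6 samples (0.0504 to 0.171). The call of 107844_at ended without any 1 sample but IKDC replicate 1 (0.0549 to 0.199), and that of Slc38a9 without any 1 but cDC replicate 1 (0.0585 to 0.271). Among the other settings tried, Slc38a9 lost its call in 8 of 10 (0.0525 to 0.13), 107844_at in 3 of 10 (0.0501 to 0.062) and Slc66a1 in 2 of 11 (0.0578 to 0.0665). Without the trend in the prior variance the calls against cDC of Slc15a4 (0.0681) and Slc29a3 (0.0988 for IKDC, 0.124 for PDC), and those of Slc46a3 in PDC against cDC (0.0695) and IKDC against PDC (0.0705), ended. No direction changed.

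Partners of the endosomal Toll-like receptors were set beside these carriers. Of 21 tested genes 9 were lower in IKDC than in cDC, 6 higher and 2 lower in PDC than in cDC, and 9 lower in IKDC than in PDC, where 2.92%, 1.73%, 1.92% and 2.39% of all probe sets passed in these directions. The list was chosen with earlier results of these data known, and its receptors did not move alike. Tlr3 was lower in PDC (21.1 and 29.9) than in cDC (456 and 484, adjusted p = 0.00517). Tlr13 was lower in PDC (58.6 and 20.3) than in cDC (346 and 373, adjusted p = 0.0125). These PDC signals lie under the 122.7 of the U74B controls, so the size of either difference is not given. Tlr9 passed in no comparison (adjusted p 0.531, 0.394 and 0.831). Tlr7, a receptor of single-stranded RNA, read 25.9 and 21.2 in IKDC, 80.5 and 105 in cDC, and 528 and 280 in PDC, in the same order as Slc29a3, and passed in all 3 comparisons (adjusted p 0.0456, 0.0168 and 0.000331). Irf5, a transcription factor that acts downstream of Slc15a4, was lower in IKDC (120 and 102) than in cDC (588 and 514) and PDC (302 and 427), with adjusted p-values of 0.00113 and 0.00973. Irf8, which PDC and a subset of cDC need for their development, and the cathepsin Ctss were lower in IKDC than in both other populations as well, by -1.09 ± 0.26 and -2.17 ± 0.27 against cDC.

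The 250 bases upstream of the start of 2 genes that were higher in PDC than in both other populations, Slc49a4 (chr16:35769371-35769620, minus strand) and Slc29a3 (chr10:60752783-60753032, minus strand), and of Slc46a3, higher in cDC than in both others (chr5:147894816-147895065, minus strand), are shown 5′ to 3′ from RefSeq on GRCm38.p6, because each of these lysosomal carriers passed against both other populations. Capitals mark matches, on either strand, to CACGTG, the E-box that the lysosomal gene regulators of the Mitf and Tfeb family bind, and to GAGGAAGT, a PU.1 motif.
Slc49a4: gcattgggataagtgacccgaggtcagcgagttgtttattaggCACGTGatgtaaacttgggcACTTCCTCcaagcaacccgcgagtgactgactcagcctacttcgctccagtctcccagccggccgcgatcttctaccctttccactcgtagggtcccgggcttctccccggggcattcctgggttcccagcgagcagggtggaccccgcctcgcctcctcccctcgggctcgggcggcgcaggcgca
Slc29a3: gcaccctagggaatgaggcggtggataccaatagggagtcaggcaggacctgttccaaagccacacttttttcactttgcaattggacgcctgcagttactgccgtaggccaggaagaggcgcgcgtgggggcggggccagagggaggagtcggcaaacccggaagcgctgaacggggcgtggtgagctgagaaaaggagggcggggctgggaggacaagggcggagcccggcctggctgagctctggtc
Slc46a3: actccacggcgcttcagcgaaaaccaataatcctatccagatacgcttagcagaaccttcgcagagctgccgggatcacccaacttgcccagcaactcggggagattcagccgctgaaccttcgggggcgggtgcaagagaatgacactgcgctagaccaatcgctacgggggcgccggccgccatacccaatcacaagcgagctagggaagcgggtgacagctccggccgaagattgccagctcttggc
The Slc49a4 window held 1 CACGTG and 1 GAGGAAGT match, the latter read on the opposite strand, and the windows of Slc29a3 and Slc46a3 held none of the 4 motifs searched. Matches are descriptions of letters and were not tied to binding. Across 32851 RefSeq promoter windows of the same 250 bases, 6.02% held CACGTG, against 10.2% of 235 windows of 175 member genes and 6 of 36 windows of 23 genes that passed (Slc12a7, Slc20a1, Slc25a33, Slc27a1, Slc30a5 and Slc49a4). GAGGAAGT was in 2.44% of all windows, 2.98% of member windows and 2 of 36 windows of genes that passed. The interferon-stimulated response element, searched as a pair of GAAA repeats parted by any 2 bases, was in 2.98% of all windows, 1.28% of member windows and 0 of 36, and the E protein motif CAGNTG in 44.8%, 43.8% and 41.7%.

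The ion carriers that passed against cDC (Slc8a1, Slc12a2, Slc8b1 and Slc4a8) were all lower than in cDC, and for Slc4a8 the signal minimum partly set that direction. Slc8a1, the sodium-calcium exchanger, read 16.3 and 20.1 in IKDC, 375 and 351 in cDC, and 89.3 and 62.1 in PDC. Both IKDC signals were under 60, where the signal gives only a bound, so the brighter group's geometric mean over 60, or over the highest unspiked control where that is above 60, is given as a lower limit: Slc8a1 was at least 6.05-fold higher in cDC than in IKDC (adjusted p = 0.000144), and PDC minus cDC was -2.06 ± 0.34 (adjusted p = 0.00628). PDC was at least 1.24-fold above IKDC (adjusted p = 0.0414). Slc12a2, the sodium, potassium and chloride cotransporter, read 159 and 218 in IKDC, 871 and 1289 in cDC, and 80 and 68.3 in PDC. No populations overlapped, and the differences were -2.41 ± 0.31 for IKDC minus cDC (adjusted p = 0.000797) and -3.58 ± 0.31 for PDC minus cDC (adjusted p = 0.000101), while IKDC minus PDC, at 1.17 ± 0.31, did not pass (adjusted p = 0.0635).

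Slc8b1, the sodium-calcium exchanger of mitochondria, read 19.8 and 26.8 in IKDC, 234 and 252 in cDC, and 128 and 82.9 in PDC, and passed for IKDC minus cDC (adjusted p = 0.00474). Over the 122.7 of the U74B controls, cDC was at least 1.98-fold above IKDC. Slc4a8, which carries sodium and bicarbonate, read 129 and 133 in cDC against 14.3 and 12.2 in IKDC and 25.1 and 22.1 in PDC, and passed for IKDC minus cDC (adjusted p = 0.034), though its cDC signals barely exceed the U74B controls (at least 1.07-fold over them). Slc4a8 reached 60 on this probe set in cDC alone, and its other probe set did not pass (log2 difference -0.72). Slc12a7, a potassium and chloride cotransporter, read 293 and 328 in IKDC, 185 and 149 in cDC, and 74.1 and 59.2 in PDC. IKDC was above PDC by 1.99 ± 0.30 (adjusted p = 0.00262), and neither comparison with cDC passed. In this class, counted by 1 probe set a gene, 3 of 27 genes were lower in IKDC than in cDC, 2 lower in PDC than in cDC, and 1 each higher and lower in IKDC than in PDC, with 2.92%, 1.92%, 2.06% and 2.39% of all probe sets passing in these directions. The proton exchanger Slc9a8 and the red cell anion exchanger Slc4a1 did not pass, with log2 differences of -0.38 and -0.03 for IKDC minus cDC and standard errors of 0.30 and 0.34.

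A second probe set of Slc8a1, on U74C, did not pass, with IKDC minus cDC at -0.49 and PDC minus cDC at -0.27. Slc12a2 against cDC and Slc8a1 in IKDC against cDC held without any 1 sample. The call of Slc8a1 in PDC against cDC was lost without either cDC sample (adjusted p 0.0766 to 0.0859), and that in IKDC against PDC without any 1 sample but PDC replicate 2 (0.101 to 0.248). Slc8b1 was lost without either cDC sample (0.053 to 0.0642), Slc4a8 without either sample of IKDC or cDC (0.152 to 0.193) and Slc12a7 without IKDC replicate 2 (0.0539). Among the other settings, Slc8a1 in IKDC against PDC was lost in 3 of 11 (0.0908 to 0.17) and Slc4a8 in 1 of 9, a pseudocount of 1 (0.0557).

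Of the metal carriers, the iron exporter Slc40a1 was higher in cDC than in both other populations, as was Slc11a1, whose direction the signal minimum partly set. Slc40a1 (ferroportin) read 252 and 240 in IKDC, 1071 and 4946 in cDC, and 293 and 417 in PDC. The 4 other samples lay under both cDC samples, which were themselves far apart. IKDC minus cDC was -3.15 ± 0.56 (adjusted p = 0.00935) and PDC minus cDC -2.67 ± 0.56 (adjusted p = 0.0295). Slc11a1 (Nramp1), a divalent metal carrier of phagosomes that limits intracellular microbes, read 58.2 and 45.4 in IKDC, 252 and 245 in cDC, and 30.9 and 46 in PDC. It reached 60 in cDC alone, so its direction follows in part from the rule that chose it, and cDC was at least 4.14-fold above IKDC (adjusted p = 0.00657) and above PDC (adjusted p = 0.00387).

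Macrophage markers moved with these carriers. Vcam1, which red pulp macrophages carry, read 188 and 1302 in the cDC samples, with 35.5 to 62.3 in the other 4. The 7 neutrophil markers with a probe set, of which 5 were tested, summed to 885 and 2671 in cDC, 840 and 261 in PDC, and 340 and 305 in IKDC. In both cases the higher value was that of cDC replicate 2, the sample with the higher Slc40a1. Csf1r (1406 and 1237), Lyz2 (1719 and 1520) and C1qb (294 and 209) were instead higher in cDC replicate 1. The remaining tested macrophage markers were higher in replicate 2, each by less than Vcam1. Of the 10 tested macrophage and monocyte markers 8 were lower in IKDC and 6 lower in PDC than in cDC. Cd68, by contrast, was at 1336 and 1944 in PDC and 806 and 846 in cDC. Their part in the Slc40a1 and Slc11a1 results was not tested.

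Of 21 tested genes of iron handling, 3 were lower in IKDC than in cDC (Fth1, the ferritin heavy chain, by -0.97 ± 0.23, Hmox1, which degrades heme, by -1.46 ± 0.30, and Hfe, at least 9.44-fold lower), 1 was lower in PDC than in cDC (Hfe) and 1 lower in IKDC than in PDC (Fth1). Of all probe sets 2.92%, 1.92% and 2.39% passed in these directions. The Fth1 probe set is a U74C family probe set, a type that can read related transcripts. Tfrc, the transferrin receptor, did not pass (-0.41 ± 0.31 for IKDC minus cDC). Neither did the divalent metal importer Slc11a2 (0.03 ± 0.32), which read 250 and 309 in IKDC, 300 and 245 in cDC, and 250 and 149 in PDC.

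Slc31a1, the copper importer, was lower in IKDC (105 and 110) than in cDC (276 and 337) on one of 2 probe sets (-1.38 ± 0.30, adjusted p = 0.0215), with PDC between them at 170 and 239, and the other probe set did not pass (-0.78). Slc39a13, a zinc carrier of the secretory pathway, was lower in PDC (119 and 137) than in IKDC (300.4 and 328) and cDC (342 and 325), by -1.28 ± 0.29 against cDC (adjusted p = 0.0392), with IKDC minus PDC at 1.20 ± 0.29 (adjusted p = 0.046). Slc30a5, which loads zinc into the Golgi, was higher in PDC (230 and 319) than in IKDC (121 and 83.6; IKDC minus PDC -1.30 ± 0.32, adjusted p = 0.046), with cDC at 110 and 116. Slc39a4, a zinc importer, passed in IKDC against cDC on 1 of 3 probe sets (301 and 420 against 56.5 and 73.3, 2.21 ± 0.56, adjusted p = 0.0469), at least 2.39-fold over the U74C controls, and the 2 others gave 0.64 and -0.62. This probe set is a U74C family probe set, a type that can read related transcripts, and its cDC signals lie under the controls' 148.7. Among 5 tested genes of zinc buffering, Mt2, a metallothionein, was higher in IKDC than in cDC (1.40 ± 0.35). Tmem163, a zinc transporter outside the solute carrier symbols, was higher in PDC than in cDC (3.87 ± 0.47) and IKDC, also on a U74C family probe set. Of all probe sets 2.68% were higher in IKDC and 1.73% higher in PDC than in cDC, and 2.39% were lower in IKDC than in PDC.

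The IKDC and cDC call of Slc40a1 passed without any 1 sample, but the log2 difference moved to -2.05 without cDC replicate 2 and to -4.24 without cDC replicate 1. In PDC against cDC the call was lost without cDC replicate 2 or either PDC sample (adjusted p 0.0825 to 0.128), with the log2 difference at -1.57 without cDC replicate 2 and -3.76 without cDC replicate 1. Without the trend in the prior variance both calls ended (0.0527 for IKDC, 0.114 for PDC), and that of PDC also with no filter on low signals (0.0524). Slc11a1 lost its IKDC and cDC call without IKDC replicate 2 or either cDC sample (0.0731 to 0.084) and its PDC and cDC call without either cDC sample (0.0566 to 0.0574). Slc31a1 was lost without either sample of IKDC or cDC (0.0799 to 0.16), Slc39a4 likewise (0.131 to 0.307) and Slc30a5 without any 1 sample but PDC replicate 1 (0.0716 to 0.389). Slc39a13 lost both calls without any 1 of the 6 samples (0.073 to 0.194 against cDC, 0.071 to 0.298 against IKDC). Among the other settings, Slc30a5 was lost in 7 of 11 (0.0506 to 0.0764), Slc39a4 in 5 of 10 (0.0581 to 0.111), and Slc39a13 in 3 of 11 against cDC (0.0566 to 0.0954) and 4 of 11 against IKDC (0.0565 to 0.105, the replicate block among them).

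The amino acid carriers that passed against cDC were all lower than in cDC: Slc7a7, Slc43a2 and Slc6a6 in IKDC, and Slc7a7, Slc38a2 and Slc1a5 in PDC. For Slc7a7 the signal minimum partly set that direction. Slc7a7, the light chain of an exchanger for cationic and neutral amino acids, read 37.2 and 17.3 in IKDC, 224 and 254 in cDC, and 14.1 and 23.7 in PDC, at least 3.97-fold above both IKDC (adjusted p = 0.00373) and PDC (adjusted p = 0.00294). It reached 60 in cDC alone and can only be lower elsewhere. Its heavy chain partner Slc3a2 did not pass: 1174 and 592 in IKDC, 948 and 1121 in cDC, and 995 and 767 in PDC (IKDC minus cDC -0.30 ± 0.34). Slc43a2, a carrier of large neutral amino acids, read 406 and 292 in IKDC, 1251 and 1278 in cDC, and 660 and 791 in PDC. No populations overlapped on this probe set, and IKDC minus cDC was -1.83 ± 0.25 (adjusted p = 0.00228), while its 2 other probe sets gave -0.42 and -0.64 and did not pass.

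Slc6a6, the taurine carrier, was lower in IKDC (163 and 150) than in cDC (661 and 405), by -1.63 ± 0.33 (adjusted p = 0.013), with PDC at 260 and 390. Slc38a2, a sodium-coupled carrier of small neutral amino acids induced by amino acid shortage, was lower in PDC (4824 and 5043) than in cDC (8721 and 15912; PDC minus cDC -1.25 ± 0.29, adjusted p = 0.0413) and IKDC (12933 and 10208; IKDC minus PDC 1.22 ± 0.29, adjusted p = 0.0412) on U74C. A U74A probe set of the gene also passed for IKDC minus PDC (1.32 ± 0.33, adjusted p = 0.0463), and the remaining 2 gave 0.83 and 0.82. For PDC minus cDC these 3 probe sets gave -0.23, -0.55 and 0.07, and none passed. For IKDC minus cDC the U74A probe set that passed above gave 1.09 and did not pass, and IKDC and cDC overlapped on the U74C one. Slc1a5, a glutamine carrier, passed for PDC minus cDC on 1 of 3 probe sets (-1.05 ± 0.24, adjusted p = 0.0405), at 4400 and 4796 in PDC against 7863 and 11474 in cDC. The probe set that passed is a U74C family probe set, a type that can read related transcripts.

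Among amino acid carriers counted by 1 probe set a gene, 3 of 38 were lower in IKDC than in cDC, 3 lower in PDC than in cDC and 1 higher in IKDC than in PDC, with 2.92%, 1.92% and 2.06% of all probe sets passing in these directions. Slc7a7 is among the 3 in both counts against cDC. The leucine carrier Slc7a5 (221.5 and 209 in IKDC, 395 and 310 in cDC, 382 and 266 in PDC) did not pass in any comparison, nor did the glutamine carrier Slc38a1 or Slc7a11, the cystine importer, whose signals were 8.6 to 84.9 in all 6 samples. Of 27 tested genes of the amino acid deprivation response and mTORC1 only Ddit4, an mTORC1 inhibitor, passed (higher in IKDC than in cDC by 1.24 ± 0.33, adjusted p = 0.0497). Of 11 tested genes of glutathione and cystine only Gsr, glutathione reductase, passed, lower in PDC than in cDC (-1.30 ± 0.31, adjusted p = 0.0445). Of all probe sets 5.60%, 3.65% and 4.45% passed in the 3 comparisons.

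The call of Slc43a2 held without any 1 sample and ended where a gene's probe sets were averaged (adjusted p 0.0616). Slc7a7 lost its IKDC and cDC call without IKDC replicate 2 or either cDC sample (0.052 to 0.0725) and its PDC and cDC call without cDC replicate 2 (0.0658). Slc6a6 was lost without either IKDC sample or cDC replicate 1 (0.079 to 0.138). The U74C probe set of Slc38a2 lost its PDC and cDC call without any 1 sample but cDC replicate 1 (0.0663 to 0.262) and its IKDC and PDC call without either sample of IKDC or PDC (0.129 to 0.293), the U74A one its call without any 1 sample but PDC replicate 2 (0.0606 to 0.324), and Slc1a5 without any 1 of the 6 samples (0.0508 to 0.261). Among the other settings, Slc1a5 was lost in 6 of 11 (0.0617 to 0.308), the U74C probe set of Slc38a2 in 6 of 11 against cDC (0.0548 to 0.27) and 5 of 11 against IKDC (0.0559 to 0.285), and the U74A one in 6 of 10 (0.055 to 0.0954).

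**Figure D3:**
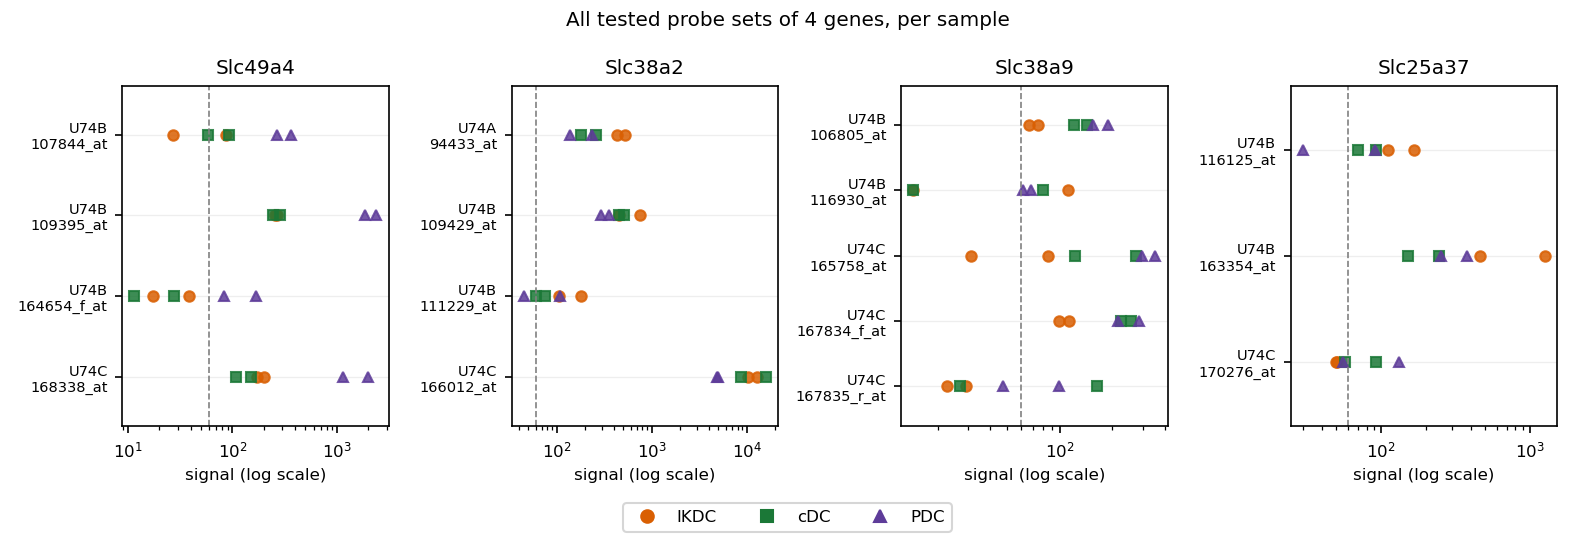
Signals (log axis) of every tested probe set of Slc49a4, Slc38a2, Slc38a9 and Slc25a37, per sample, with the signal minimum of 60 dashed. For Slc49a4 both PDC samples are highest on all 4 probe sets, while for Slc25a37 the IKDC samples are highest on 163354_at (459 and 1262) and not on 170276_at (49.5 and 50.3).

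In the Slc25 family of mitochondrial carriers, Slc25a53, Slc25a33 and Slc25a37 were higher in IKDC than in cDC. Slc25a53, a carrier with no established substrate, read 830 and 1241 in IKDC, 63.8 and 72.7 in cDC, and 979 and 1638 in PDC on U74A. IKDC and PDC overlapped and both stood above cDC, by 3.62 ± 0.33 (adjusted p = 7.53e-05) and 3.93 ± 0.33 (adjusted p = 8.16e-05). Its second probe set, a family probe set on U74C, did not repeat this: 227 and 226 in IKDC, 294 and 300 in cDC, and 417 and 356 in PDC, with differences of -0.37 and 0.36. The erythroid and the B and plasma cell marker sums given above were also higher in IKDC and PDC than in cDC. In the latter sum Igha read 5909 and 4205 in IKDC, 6474 and 2614.5 in PDC, and 190 and 227 in cDC. The B cell markers Cd79a, Cd79b and Ms4a1 passed in no comparison. The part of these other cells in the Slc25a53 result was not tested.

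Slc25a33, which carries pyrimidine nucleotides into mitochondria, read 558 and 533 in IKDC, 188 and 250 in cDC, and 354 and 264 in PDC, and IKDC exceeded cDC by 1.27 ± 0.28 (adjusted p = 0.0305), while its other probe set, on U74C, did not pass (-0.49). Slc25a37 (mitoferrin 1), which imports iron for heme synthesis in erythroid cells, read 459 and 1262 in IKDC, 151 and 243 in cDC, and 254 and 380 in PDC, with IKDC above cDC by 1.90 ± 0.45 (adjusted p = 0.0395). Its other 2 probe sets gave 0.66 and -0.43 and did not pass. Erythroid markers rose beside it: Alas2, the heme synthesis enzyme of red cell precursors, read 598 and 1331 in IKDC, 31.4 and 121 in cDC, and 537 and 589 in PDC, and 4 of 8 erythroid markers were higher in IKDC, and 3 in PDC, than in cDC. In both genes the higher IKDC value was that of replicate 2. The part of erythroid RNA in the Slc25a37 result was not tested.

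Of 32 Slc25 genes, 3 were higher in IKDC than in cDC, 1 higher in PDC than in cDC and none passed between IKDC and PDC by limma, where 5 had an unadjusted p under 0.05. Of all probe sets 2.68%, 1.73% and 4.45% passed. The adenine nucleotide translocases Slc25a4 and Slc25a5 did not pass, at -0.59 ± 0.42 and 0.32 ± 0.28 for IKDC minus cDC, nor did Slc25a38, the glycine importer of heme synthesis, at -1.34 ± 0.39 (adjusted p = 0.0847). Slc25a53 kept its calls against cDC without any 1 sample. Slc25a33 lost its call without either sample of IKDC or cDC (adjusted p 0.0788 to 0.187), and Slc25a37 without IKDC replicate 2 or either cDC sample (0.111 to 0.269). Slc25a37 was also lost in 3 of 11 other settings (0.0645 to 0.115), the average of its probe sets within the array type among them (0.0819). Slc25a33 was lost without the trend in the prior variance (0.0924).

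The choline carriers Slc44a1 and Slc44a2 and the fatty acid carrier Slc27a1 were higher in PDC than in IKDC. Slc44a1, a choline carrier that feeds phosphatidylcholine synthesis, read 102 and 119 in IKDC, 365 and 252 in cDC, and 539 and 545 in PDC. No populations overlapped, in the order PDC, cDC, IKDC, with IKDC minus cDC at -1.34 ± 0.29 (adjusted p = 0.0211), IKDC minus PDC at -2.15 ± 0.29 (adjusted p = 0.00128) and PDC minus cDC not past the threshold (0.80 ± 0.29, adjusted p = 0.21). Its relative Slc44a2 read 317 and 347 in IKDC, 291 and 546 in cDC, and 705 and 1227 in PDC, and passed for IKDC minus PDC (-1.44 ± 0.36, adjusted p = 0.045).

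Slc27a1, a fatty acid transport protein with acyl-CoA synthetase activity, read 610 and 510 in IKDC, 643 and 568 in cDC, and 1225 and 1439 in PDC. IKDC and cDC overlapped, and PDC exceeded cDC by 1.12 ± 0.24 (adjusted p = 0.0315), with IKDC minus PDC at -1.23 ± 0.24 (adjusted p = 0.0168). The lactate exporter Slc16a3 did not pass (223 and 233 in IKDC, 201 and 184 in cDC, 286 and 187 in PDC, log2 differences from -0.02 to 0.25). Among 12 tested genes of lactate and pyruvate handling, Pdha1, a subunit of pyruvate dehydrogenase, and Car2, a carbonic anhydrase that erythroid cells also carry, were higher in IKDC than in cDC (1.69 ± 0.41 and 3.37 ± 0.30). Car2 was also higher in PDC than in cDC (1.97 ± 0.30). Against PDC, Emb (1.38 ± 0.30) and Car2 (1.40 ± 0.30) were higher in IKDC, and Ldhb was at least 3.49-fold lower. Of all probe sets 2.68%, 1.73%, 2.06% and 2.39% passed in these directions.

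The 2 other probe sets of Slc44a1 did not pass, with IKDC minus PDC at -0.84 and -1.20. The IKDC and PDC call of Slc44a1 held without any 1 sample. Its IKDC and cDC call was lost without either IKDC sample or cDC replicate 1 (adjusted p 0.112 to 0.178), that of Slc44a2 without either IKDC sample or PDC replicate 2 (0.183 to 0.235), and Slc44a2 was also lost in 4 of 11 other settings (0.0519 to 0.106). Slc27a1 lost its PDC and cDC call without any 1 of the 6 samples (0.0505 to 0.19) and its IKDC and PDC call without either IKDC sample or PDC replicate 2 (0.0668 to 0.156), and both without the trend in the prior variance (0.151 and 0.11).

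Slc20a1, a sodium-dependent phosphate importer, read 707 and 478 in IKDC, 192 and 313 in cDC, and 118 and 108 in PDC. No populations overlapped, in the order IKDC, cDC, PDC. IKDC exceeded PDC by 2.21 ± 0.33 (adjusted p = 0.00217), while IKDC minus cDC, at 1.19 ± 0.33, did not pass (adjusted p = 0.0603) and PDC minus cDC was -1.02 ± 0.33 (adjusted p = 0.146). Slc14a1, a urea carrier of red cells and other tissues, was higher in IKDC (591 and 772) than in PDC (221 and 243) on 1 of 4 probe sets (1.48 ± 0.31, adjusted p = 0.0255), with cDC at 441 and 767. This was a U74B family probe set, a type that can read related transcripts, and the other 3 gave 0.95, 0.41 and -0.25.

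Slc35c2, a Golgi protein linked to the fucosylation of Notch, was lower in IKDC (122 and 123) than in cDC (337 and 329) and PDC (336 and 408). The differences were -1.33 ± 0.28 against cDC (adjusted p = 0.0163) and -1.48 ± 0.28 against PDC (adjusted p = 0.0102), and cDC and PDC overlapped. Its 2 other probe sets, both on U74C, did not pass, with IKDC minus cDC at -0.10 and 0.66 and IKDC minus PDC at 0.37 and 0.93. Slc35c2 was the only one of 22 nucleotide sugar carriers to pass (5.60% and 4.45% of all probe sets passed in these comparisons). Slc35a1, which brings CMP-sialic acid into the Golgi, did not (0.36 ± 0.38 for IKDC minus cDC), nor did Slc35b1 (-0.21 ± 0.29).

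Sugar carriers other than Slc2a1 and Slc2a3 had none of 18 genes past the threshold in any comparison by limma, with median log2 differences of -0.04, 0.09 and -0.03, and 3, 0 and 1 had an unadjusted p under 0.05. Slc50a1, a sugar carrier of the Golgi and plasma membrane, read 487 and 617 in IKDC, 336 and 446 in cDC, and 438 and 436 in PDC, and IKDC minus cDC was 0.48 ± 0.28 (adjusted p = 0.396). In the class of organic ion and drug carriers only Slc14a1 passed, of 18 genes. Beside this class and the sugar carriers, 5.60%, 3.65% and 4.45% of all probe sets passed in the 3 comparisons.

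**Figure D4:**
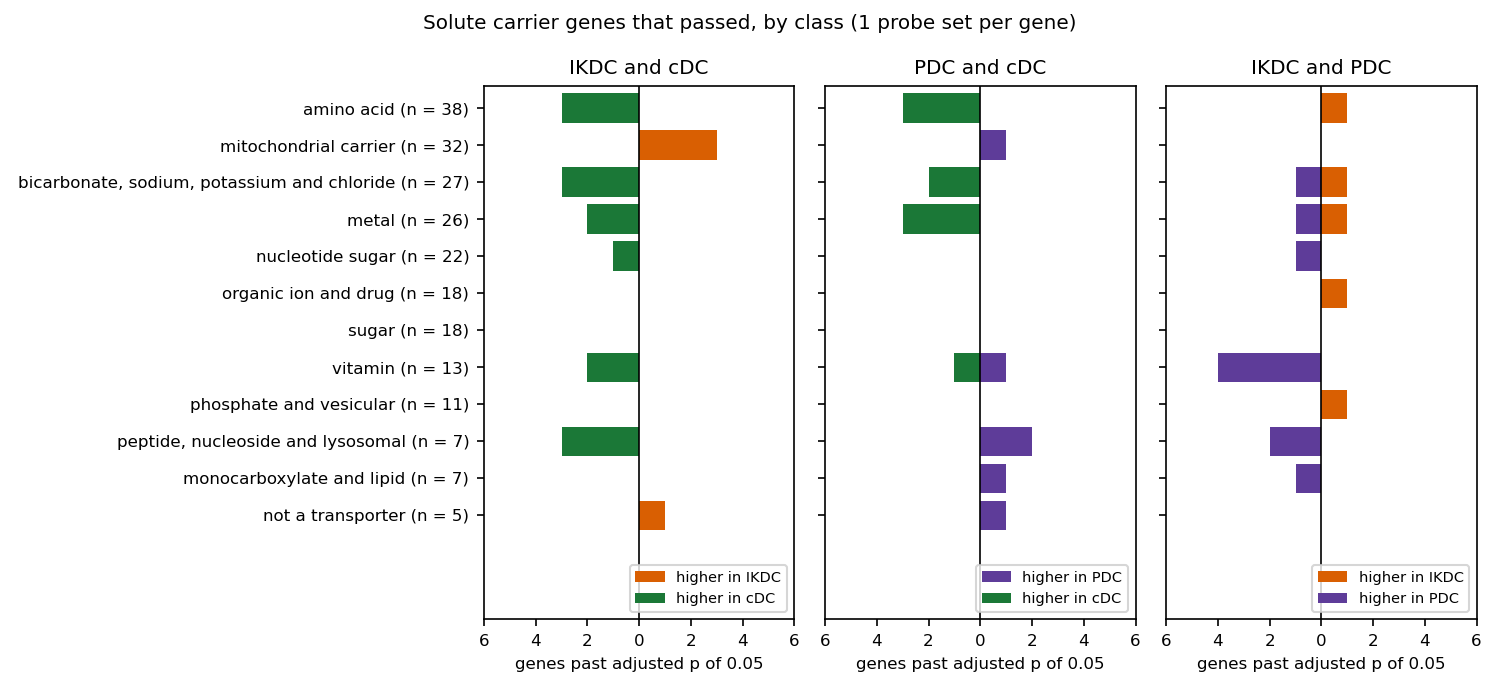
Number of solute carrier genes (1 probe set per gene) past an adjusted p of 0.05 in each class and comparison, with bars to either side for the population in which the gene was higher and n the genes tested. Mitochondrial carriers passed upward in IKDC against cDC (3 of 32 genes), amino acid carriers downward (3 of 38), and the sugar class had none of 18. Of all probe sets 2.68% passed upward and 2.92% downward in IKDC against cDC, and 5.60%, 3.65% and 4.45% passed in the 3 comparisons.

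Symbols with the prefix include 5 genes that are not transporters. Slc2a4rg-ps, a pseudogene of a transcription regulator of Slc2a4, read 361 and 520 in IKDC, 14.5 and 40.1 in cDC, and 160 and 172 in PDC, and passed in IKDC (adjusted p = 0.00275) and PDC (adjusted p = 0.0498) against cDC. Over the 148.7 of the U74C controls, IKDC was at least 2.91-fold and PDC at least 1.12-fold above cDC. The scaffold Slc9a3r1 did not pass (IKDC minus PDC 1.15 ± 0.33, adjusted p = 0.0857).

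Slc20a1 kept its IKDC and PDC call without any 1 sample. Slc14a1 was lost without either sample of IKDC or PDC (adjusted p 0.0666 to 0.206), and Slc35c2 lost its IKDC and cDC call without either sample of IKDC or cDC (0.0944 to 0.134) and its IKDC and PDC call without either IKDC sample (0.103 to 0.104). Slc2a4rg-ps lost its IKDC and cDC call without IKDC replicate 2 (0.0574) and its PDC and cDC call without any 1 of the 6 samples (0.066 to 0.204) and in 6 of 11 other settings (0.0648 to 0.161). Slc14a1 was also lost without the trend in the prior variance (0.11).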

How the data were processed

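The files hold 1 table per array type (U74A, U74B, U74C) with the signal intensity of each probe set, which the authors made with Affymetrix MAS 5 and GCOS 1.1.1 and scaled to a target of 150, per the labels. Values were used as deposited. Gene symbols came from the platform annotation, and only probe sets with 1 symbol were named. For each array type, log2(signal + 16) was modelled by limma (version 3.58.1, R 4.3.3) with 3 populations in 1 model and a trended prior variance, over the 23285 probe sets that reached 60 on 2 arrays of their type. The p-values were adjusted together by Benjamini-Hochberg (threshold 0.05). Fold changes are on the log2(signal + 16) scale, which understates low genes. Where both arrays of a population lay under 60, or on U74B and U74C under the highest unspiked control (122.7 and 148.7), the fold is a bound: the geometric mean of the brighter population over that level, no value taken under it. The model has 3 residual degrees of freedom, and precision is limited by how few arrays there are.

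The members and all lists were chosen with earlier results of these data known. Genes named in the text are those that passed in a comparison, the brightest of each class, and transporters fixed for their function. Families 49 and 66 were put in classes after the files were read. The representative probe set of a gene is its brightest. The fit was tested on simulated data.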

Additional observations from a re-analysis of the deposited data

How the results depend on the processing

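The counts of solute carrier calls were recomputed with other pseudocounts, filters, normalizations, adjustments and models, and without each sample. No call of a named gene changed direction, but the balance of higher and lower counts could shift. For PDC against cDC it was 7 higher and 9 lower, 6 and 5 with no filter on low signals, and 7 and 7 with median centring. For IKDC against cDC the 21 calls ranged from 7 to 23 without 1 sample. For PDC against cDC the 16 became 9 without the trend in the prior variance and ranged from 4 to 11 without 1 sample. For IKDC against PDC the 19 became 11 with no filter on low signals and 9 without the trend, and ranged from 7 to 15 without 1 sample. Over all probe sets, the counts without 1 sample ranged from 593 to 1656, from 327 to 719 and from 493 to 869. Every other alternative left the counts within 1.5 times. For the named genes, 231 of the alternative values lost the call, 24 gained one and 2976 stayed on their side of the threshold. With the replicate block the members' calls were 25, 19 and 21 and those of all probe sets 1650, 1055 and 1223, and the block ended 1 member's call, Slc39a13 in IKDC against PDC (adjusted p 0.0565). The labels do not say whether same-numbered samples were prepared together, and the main model did not pair them. Deviations of same-numbered samples correlated between -0.0862 and 0.235, which cannot settle it. Leaving out 1 sample leaves its population with a single sample, which is then assumed to vary like the others. Signals under the unspiked controls limit what low probe sets can show.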
